A study of Mus musculus with 34 samples.

Results

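The genes described here are 42 mouse genes of the cell cycle and of DNA replication, taken by name from the gene table of a compound screen in N2A cells, which lists 52661 genes. All 42 were found. They were grouped by role into 5 genes for D cyclins and their kinases, 17 G1/S and replication genes, 15 G2/M genes, 2 kinases that restrain Cdk1 and 3 Cdk inhibitors. The question asked of the data was how each gene stood in each of 27 compounds relative to DMSO, and whether G1/S and G2/M genes moved by the same amount.

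N2A (Neuro-2A) is a mouse neuroblastoma cell line. The study looked for small molecules that alter the splicing of microexons, the shortest exons of neuronal transcripts, and sequenced polyA RNA from cells kept for 24 h with a compound or with the solvent alone; every culture, controls included, held 0.4% DMSO. There were 34 libraries. DMSO had 3 (A, B and C), each of 4 histone deacetylase (HDAC) inhibitors had 2 (A and B), and each of the other 23 compounds had 1.

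The 4 HDAC inhibitors were Vorinostat at 2.5 µM, CI-994 at 5 µM, and BRD4884 and BRD6688, both at 10 µM. Vorinostat is listed as an inhibitor of class I and II HDACs, and the other three as inhibitors of HDAC1, 2 and 3, with BRD4884 and BRD6688 kinetically selective for HDAC2. The kinase inhibitors, with their listed targets, were A-443654 (AKT1, 0.25 µM), NVP-AEW-541 (IGF1R, 1 µM), Trametinib (MEK1 and MEK2, 1 µM), Crenolanib (PDGF receptors, 2 µM), SCH-772984 (Erk1 and Erk2, 2 µM), GNF-5837 (TRKA and TRKB, 0.5 µM) and MK-1775 (WEE1, 2 µM). 5-azacytidine, a DNA methyltransferase inhibitor, was used at 5 µM. The other compounds are screening molecules of unknown target: BTB12021 and SPB00858 at 20 µM, S02045, AW00693 and JFD00822 at 5 µM, RDR00572, BTBS00065, SEW06315 and RH01954 at 2.5 µM, BTB13120 at 0.625 µM, and T5635931, T5758020, T5963258, T5985871 and OICR.24K.Dissimilar_18_P14 at 6.7 µM. The study classed 17 of the 27 compounds as activators of microexon splicing and 10 as inhibitors.

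In dividing cells, D cyclins bound to Cdk4 or Cdk6 and cyclin E bound to Cdk2 inactivate the retinoblastoma protein and release E2F factors, which switch on the genes needed for DNA replication. Cyclin A and cyclin B bound to Cdk1 later drive mitosis, and the genes for mitotic kinases, spindle checkpoint proteins and the anaphase machinery are transcribed late in the cycle. Wee1 and Pkmyt1 hold Cdk1 inactive by phosphorylation until Cdc25 phosphatases remove the mark, and proteins of the Cdkn1 and Cdkn2 families block the cyclin-dependent kinases. A neuroblastoma line such as N2A divides continuously, so transcripts of all these groups are present in an unsynchronised culture. In bulk RNA such as this, fewer cells in a phase and less of a transcript per cell cannot be told apart.

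Measurements were made on 2 scales. The gene table gives 1 RPKM value per condition (reads per kilobase of transcript, scaled to the depth), merged over replicates by the authors, so RPKM values below have no error. For single libraries, the reads across the spliced introns of each gene were summed, divided by the total of such reads in the library and given as counts per 1000000 (CPM). These junction reads numbered between 17702718 and 40613524 per library (median 26332958). A log2 RPKM ratio was taken after adding 0.5 to both values, and a gene was called beyond 2-fold only where it passed 5 RPKM in either condition. Of the 42 genes, 40 had spliced introns in the splicing table (Pcna and Ccnb1 had none). Limma tested the 38 of these that had at least 20 junction reads per library on average, Cdk6 and Cdkn1c being too low.

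The 2 Vorinostat libraries differed from each other more than other replicates did, with a chi-square per gene of 39.4 against 6.09 to 8.65 in other pairs of the same group. A read can be counted at more than 1 intron, so these values do not measure agreement against sampling noise. Of the neuroblastoma markers, Hand2 (248 RPKM in DMSO) and Tubb3 (396) were high and Nefl was at 0.01. All 10 markers of fibroblasts, blood cells, epithelium and astrocytes were at or below 0.56 RPKM in DMSO, and reached at most 11.7 (Col1a1) in any compound.

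In DMSO, 39 of the 42 genes were over 5 RPKM. Cdk1, the kinase that drives mitosis, was the most abundant at 667 RPKM, followed by Cdk4 (460), Pcna, the sliding clamp of the replication fork (353), and Ccnb1, cyclin B1 (340). The 3 genes that were nearly silent were Cdk6 (0.01 RPKM), Ccnd2 (0.04) and the Cdk inhibitor Cdkn1c (0.14), and in no compound did they pass 2 RPKM. The DMSO libraries were close to each other. Over the 37 genes with at least 20 junction reads on average in the 34 libraries, the coefficient of variation between the 3 DMSO libraries had a median of 3.65%, from 0.587% for Plk1 to 22.6% for Pkmyt1, beside 5.94% over all genes.

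Across the 27 compounds, 133 of 1053 combinations of gene and compound over 5 RPKM were beyond 2-fold, 130 lower and 3 higher than DMSO. Over all genes, 6.53% of combinations were beyond 2-fold in either direction. The lower values came from a few compounds. Of the 39 genes over 5 RPKM, 38 were more than 2-fold lower in CI-994 (26.1% of all genes), 36 in Vorinostat (22.5%), 17 in BRD4884 (4.42%) and 6 in BRD6688 (6.75%). GNF-5837 had 19 (5.7%), MK-1775 had 8 (2.69%), T5985871 had 3 (8.41%), and Trametinib, Crenolanib and BTB13120 had 1 each. The 3 higher values were Aurka in AW00693 and Aurka and Mcm7 in T5985871. The other 16 compounds had none, where 2.1% of all genes were beyond 2-fold in either direction. These counts moved with the scale: with each compound centred on the median of all genes, 98 combinations were lower and 3 higher, and on junction reads 85 were lower and 4 higher. The median RPKM ratio of all genes was itself below 0 in the HDAC inhibitors, at -0.36 (log2) for Vorinostat, -0.44 for CI-994, -0.27 for BRD4884 and -0.19 for BRD6688, while on junction reads it was 0.10, 0.09, 0.18 and 0.16.

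**Figure D1:**
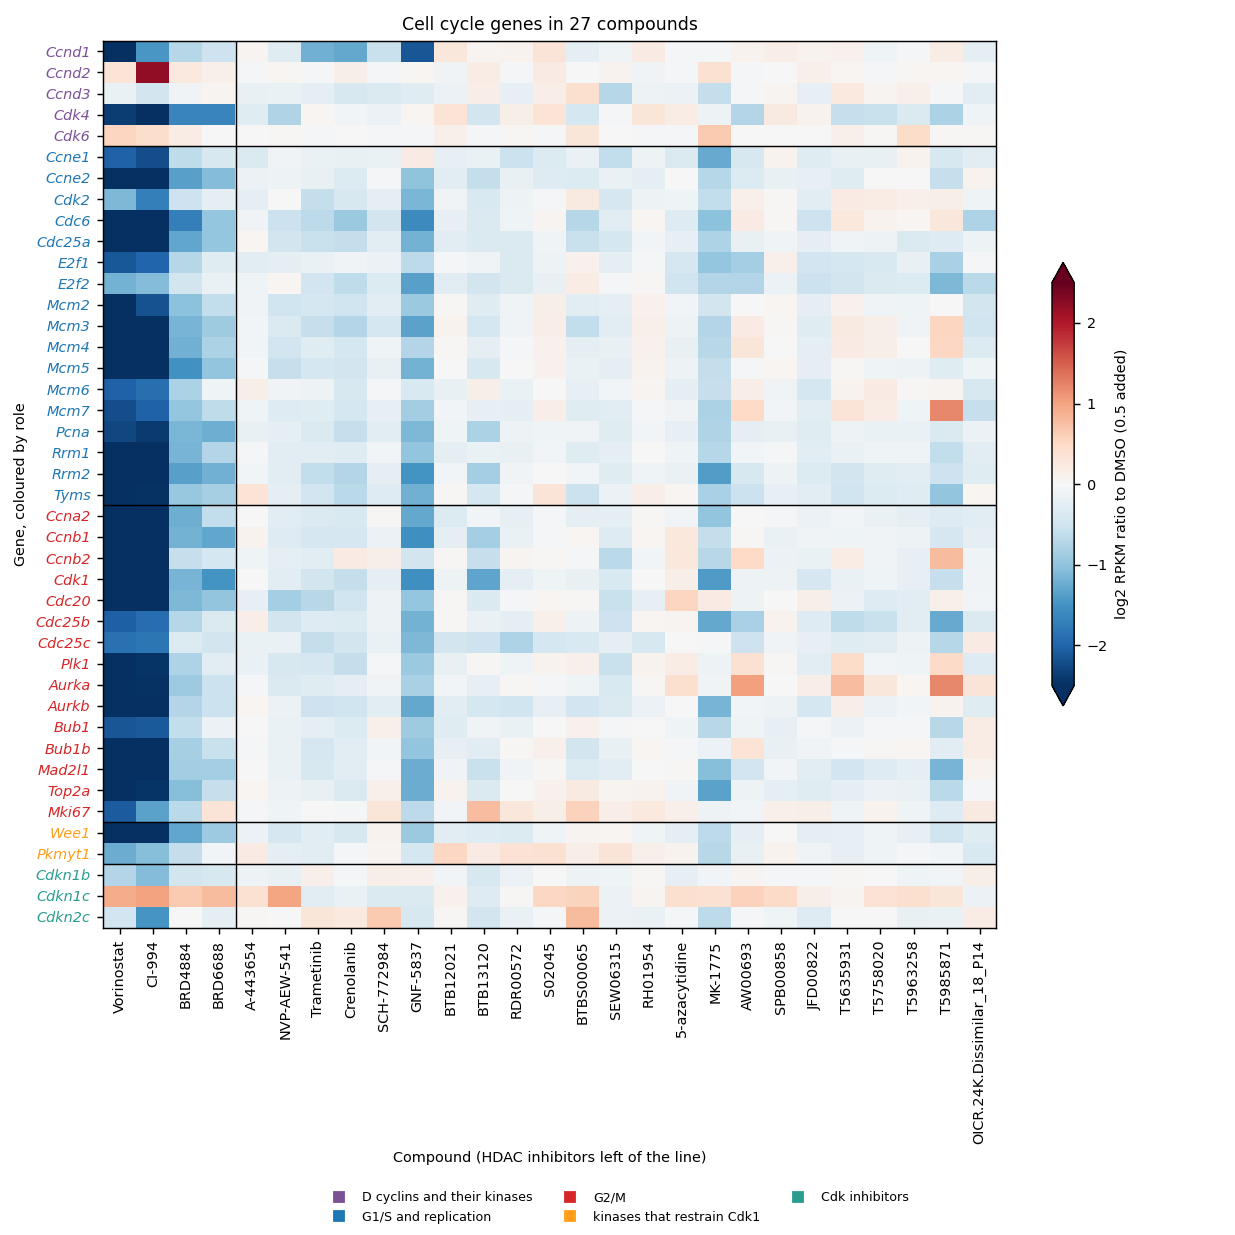
Log2 RPKM ratio to DMSO of the 42 genes (rows, coloured and separated by role) in 27 compounds (columns, the 4 HDAC inhibitors left of the line), with 0.5 RPKM added to both values and 1 value per condition. Vorinostat and CI-994 are dark blue in nearly every row, GNF-5837, BRD4884, BRD6688 and MK-1775 are paler blue, and Ccnd2 in CI-994, at 2 RPKM against 0.04 in DMSO, is the darkest red cell.

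All comparisons of HDAC inhibitors with DMSO share the same 3 DMSO libraries. By the study's methods, the libraries of each HDAC inhibitor are biological replicates, and fewer such replicates are described for DMSO than there are libraries. The p-values below measure the spread between these libraries, pooled for each gene over DMSO and every HDAC inhibitor. They do not measure the spread of the named inhibitor and DMSO alone. The Vorinostat pair, which differed most, enters every comparison, and the Vorinostat p-values draw on the other groups. With only the compared inhibitor and DMSO in the fit, limma called 35 genes of the set in Vorinostat and 38 in CI-994. It called 31 in BRD4884 and 29 in BRD6688. In Vorinostat, limma with Benjamini-Hochberg adjustment over 11073 genes called 35 of the 38 tested genes lower and 1 higher, where 34.3% of all genes tested were called lower and 42.3% higher. The median log2 difference was -2.32 for these genes and 0.10 over all genes. Lower and beyond 2-fold were 33 of the 38, against 13.4% of all genes. In CI-994, 36 were lower and 1 higher, where 35.2% and 42.2% of all genes were, with a median of -2.11 (all genes 0.09); 31 were lower beyond 2-fold, against 13.2% of all genes. Leaving out either Vorinostat library left 36 (without A) or 35 (without B) genes called in that inhibitor.

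The 2 HDAC2-selective compounds were tested in the same fit. In BRD4884, 28 of 38 genes were lower and none higher, where 19.3% of all genes were lower and 42% higher, with a median log2 difference of -0.51 (all genes 0.18). In BRD6688, 26 were lower and 1 higher, where 24.3% and 41.2% of all genes were, with a median of -0.37 (all genes 0.16). Beyond 2-fold lower were 5 genes in BRD4884 and 3 in BRD6688, against 0.704% and 2.72% of all genes. When libraries were scaled by the median of ratios, 33 genes were called in each of these compounds. Doses differ between Vorinostat, CI-994 and this pair, so their values stand side by side here and are not compared.

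**Figure D2:**
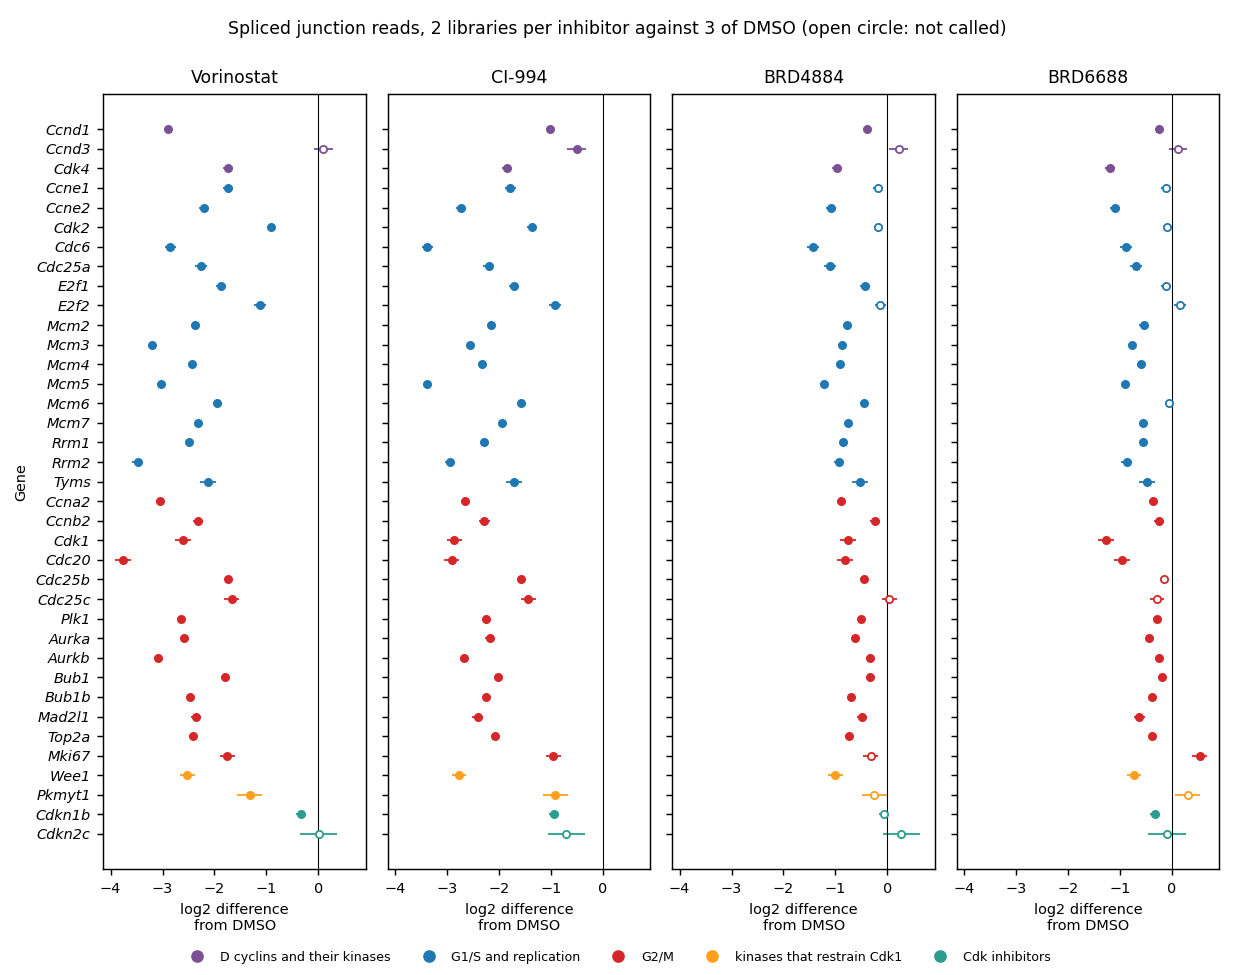
Log2 difference in junction reads from DMSO with its standard error (bars) for 37 genes in the 4 HDAC inhibitors, 2 libraries each against 3 of DMSO, with filled points called at an adjusted p below 0.05 (limma) and open points not called; Ccnd2, with 4 junction reads over the DMSO libraries, is left out. Most points lie left of 0, around medians of -2.32 in Vorinostat, -2.11 in CI-994, -0.51 in BRD4884 and -0.37 in BRD6688, where Mki67 lies to the right.

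Ccnd1, cyclin D1, couples growth signals to entry into the cycle. It was at 204, 203 and 178 junction CPM in DMSO libraries A, B and C, at 25.9 and 26.1 in Vorinostat, at 102 and 90.2 in CI-994, at 149 and 148 in BRD4884, and at 157 and 171 in BRD6688. No inhibitor library reached the DMSO range. It fell by 2.90 ± 0.08 (log2 difference ± SE, limma adjusted p = 2.56e-12) in Vorinostat, by 1.02 ± 0.08 (6.71e-08) in CI-994, by 0.39 ± 0.08 (0.00113) in BRD4884 and by 0.25 ± 0.08 (0.0165) in BRD6688. The last call was lost without DMSO A, DMSO B or BRD6688 A, with adjusted p-values (limma) of 0.0658, 0.0625 and 0.159.

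Cdk4, the partner kinase of the D cyclins, was at 784, 800 and 752 junction CPM in DMSO. It was at 261 and 206 in Vorinostat, 215 and 216 in CI-994, 404 and 394 in BRD4884, and 320 and 361 in BRD6688. All 8 inhibitor libraries were under the DMSO range. In BRD6688 its fall of 1.19 ± 0.09 on the log2 scale (limma adjusted p = 9.72e-08) was among the 5 strongest of the set. In Vorinostat and CI-994 the difference was -1.74 and -1.85.

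Of the 38 tested genes, Ccnd2, cyclin D2, was the only one called higher in Vorinostat or CI-994, from very few reads. DMSO libraries A, B and C had 0, 4 and 0 junction reads in all, Vorinostat A and B had 4 and 23, CI-994 had 93 and 108, BRD4884 had 5 and 3, and BRD6688 had 3 and 0. The summed reads of CI-994, per total reads, were 91.9 times those of DMSO (95% exact interval 35.3 to 340), and those of Vorinostat 14.9 times (5.18 to 58.5). These intervals take each read as independent and leave out the spread between libraries. A read can be counted at more than 1 intron, so they may be too narrow even for counting error. The fitted log2 difference was 6.11 ± 0.93 (limma adjusted p = 3.68e-05) in CI-994 and 3.20 ± 0.93 (0.00643) in Vorinostat, a size that depends on the read added before the logarithm. The Vorinostat call was lost without library B (2.34). Ccnd2 passed the read minimum only through its reads in CI-994. When either CI-994 library was left out, or with only Vorinostat and DMSO in the fit, the gene was under the minimum and was not tested. The p-values of Ccnd2 are therefore no separate support for its rise. In RPKM, Ccnd2 went from 0.04 to 2 in CI-994 and 0.19 in Vorinostat. Without the read minimum, Cdk6 was called higher in Vorinostat (log2 difference 4.10, limma adjusted p = 8.82e-05). So was Cdkn1c in Vorinostat (2.28, 0.0087), CI-994 (2.08, 0.0141) and BRD4884 (2.15, 0.0164). Their junction reads averaged only 1.12 (Cdk6) and 3.47 (Cdkn1c) per library. Ccnd3, cyclin D3, was called in CI-994 alone among these inhibitors (-0.50 ± 0.18, limma adjusted p = 0.023), at 9.49 and 10.7 junction CPM against 15.8, 15.5 and 11.9 in DMSO. That call was lost without DMSO A, DMSO B or CI-994 A (limma adjusted p = 0.0764, 0.0717 and 0.14).

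Among G1/S and replication genes, 16 of 16 tested were lower in Vorinostat and in CI-994, 13 in BRD4884 and 11 in BRD6688, with medians of -2.29, -2.17, -0.81 and -0.56. Of all genes tested, 34.3, 35.2, 19.3 and 24.3% were lower in the same order, with medians of 0.10, 0.09, 0.18 and 0.16. Rrm2, the small subunit of ribonucleotide reductase, which makes deoxynucleotides, was at 165, 144 and 156 junction CPM in DMSO. It was at 14.4 and 13.2 in Vorinostat, 18.4 and 21.8 in CI-994, 78.5 and 83.2 in BRD4884, and 80.6 and 88.5 in BRD6688. No inhibitor library overlapped DMSO. The fall was 11.2-fold in Vorinostat (-3.48 ± 0.10, limma adjusted p = 2.42e-12) and 7.69-fold in CI-994 (-2.94 ± 0.10, 1.4e-11).

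Cdc6, which loads the MCM helicase at replication origins, was at 49.3, 52.2 and 52.3 junction CPM in DMSO. Vorinostat had 7.29 and 6.9, CI-994 4.75 and 5.05, BRD4884 17.8 and 20.2, and BRD6688 28.1 and 27.5. No inhibitor library overlapped DMSO, and BRD4884 did not overlap BRD6688. Cdc6 had, with Mcm5, the strongest fall of the set in CI-994 (-3.38 ± 0.11, limma adjusted p = 1.3e-11, 10.4-fold), and the strongest in BRD4884 (-1.43 ± 0.11, 1.17e-07, 2.7-fold).

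The MCM genes encode the 6 subunits of the replicative helicase. Mcm5 was at 581, 599 and 572 junction CPM in DMSO, at 73.4 and 69.2 in Vorinostat, 53.7 and 58.4 in CI-994, 256 and 244 in BRD4884, and 301 and 330 in BRD6688, with every inhibitor library under the DMSO range. Its log2 differences were -3.03, -3.38, -1.22 and -0.89, each ± 0.07 (limma adjusted p = 5.34e-13, 2.7e-13, 5.34e-09 and 1.61e-07). Mcm3 was at 442, 464 and 433 in DMSO, 51.6 and 45.7 in Vorinostat, 75.2 and 76.9 in CI-994, 255 and 232 in BRD4884, and 256 and 272 in BRD6688. Its fall in Vorinostat (-3.20 ± 0.07, limma adjusted p = 6.14e-13) was the third strongest of the set. Mcm6 had the smallest difference of the 6 subunits in all 4 inhibitors, a contrast between genes that was not tested. It was at 422, 400 and 426 in DMSO, 103 and 111 in Vorinostat, 136 and 145 in CI-994, 294 and 313 in BRD4884, and 418 and 388 in BRD6688, where it overlapped DMSO and was not called (-0.05 ± 0.07, limma adjusted p = 0.56; called at -0.18, adjusted p = 0.0447, when libraries were scaled by the median of ratios).

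Cyclin E2 (Ccne2), which activates Cdk2 at the start of replication, was at 110, 114 and 124 junction CPM in DMSO, 27.2 and 23.3 in Vorinostat, 17.6 and 17 in CI-994, 54.4 and 55.3 in BRD4884, and 52.9 and 56.1 in BRD6688. All inhibitor libraries were lower, and BRD4884 and BRD6688 overlapped with each other. The difference was -1.08 ± 0.09 in BRD4884 and -1.09 ± 0.09 in BRD6688 (limma adjusted p = 3.02e-07 and 3.8e-07). Its paralog Ccne1 was at 66.4 to 72.2 in DMSO, at 58.9 and 64.1 in BRD4884, and at 62.4 and 66.7 in BRD6688. It passed the test in neither, though it did with median-of-ratios scaling (-0.39 and -0.24, limma adjusted p = 0.00275 and 0.0385). In BRD4884 it was also called with only BRD4884 and DMSO in the fit (-0.18, limma adjusted p = 0.0291). Cdc25a, the phosphatase that activates Cdk2, was at 104, 106 and 105 in DMSO, 48 and 49.9 in BRD4884 and 62.3 and 68.2 in BRD6688 (-1.10 ± 0.11, limma adjusted p = 1.72e-06, and -0.69 ± 0.11, 0.00013). Cdk2 itself moved least of this group in Vorinostat, at 67.4 and 61.1 against 118, 122 and 124 in DMSO. Pcna, for which no junction reads exist, went from 353 RPKM in DMSO to 72.1 in Vorinostat, 66.5 in CI-994, 158 in BRD4884 and 152 in BRD6688.

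Among G2/M genes, 14 of 14 tested were lower in Vorinostat and in CI-994, 12 in BRD4884 and 11 in BRD6688, with medians of -2.44, -2.24, -0.49 and -0.33. Of all genes tested, 34.3, 35.2, 19.3 and 24.3% were lower in the same order. Cdc20, the activator of the anaphase-promoting complex, was at 112, 103 and 101 junction CPM in DMSO. It was at 9.49 and 6.29 in Vorinostat, 13.2 and 14.8 in CI-994, 55.4 and 64.7 in BRD4884, and 51.3 and 56.7 in BRD6688. No inhibitor library overlapped DMSO. Its fall in Vorinostat, 13.6-fold (-3.76 ± 0.15, limma adjusted p = 4.76e-11), was the strongest of the set, and in CI-994 it fell 7.51-fold (-2.91 ± 0.15, 5.96e-10).

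Cdk1 was at 470, 481 and 527 junction CPM in DMSO. Vorinostat had 104 and 62.6, CI-994 67.6 and 67.4, BRD4884 282 and 300, and BRD6688 200 and 210. All 8 libraries were lower than DMSO, and in BRD6688 the fall of 1.27 ± 0.15 (limma adjusted p = 6.1e-06) was the strongest of the set. In BRD4884 it was 0.76 ± 0.15 (0.000471). Its partner Ccnb1, measured in RPKM alone, went from 340 in DMSO to 40.7 in Vorinostat, 32 in CI-994, 150 in BRD4884 and 139 in BRD6688.

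Cyclin A2 (Ccna2) was at 525, 479 and 523 junction CPM in DMSO, 55.6 and 68 in Vorinostat, 81 and 80 in CI-994, 269 and 280 in BRD4884, and 399 and 391 in BRD6688, again with no library in the DMSO range. Aurkb, the chromosomal passenger kinase, was at 95.4, 101 and 98.2 in DMSO, 11.9 and 11.2 in Vorinostat, 15.8 and 15.1 in CI-994, 78.7 and 77.9 in BRD4884, and 79.4 and 85.8 in BRD6688. In Vorinostat, the difference was -3.05 ± 0.08 for Ccna2 (limma adjusted p = 1.75e-12) and -3.09 ± 0.08 for Aurkb (1.81e-12). The Aurkb fall of 0.25 ± 0.08 in BRD6688 was lost without DMSO B or BRD6688 A (limma adjusted p = 0.0611 and 0.147).

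Mki67, which encodes the proliferation antigen Ki-67, went in different directions. It was at 202, 194 and 195 junction CPM in DMSO, 45.2 and 75.8 in Vorinostat, 101 and 102 in CI-994, 152 and 164 in BRD4884, and 303 and 269 in BRD6688. Vorinostat, CI-994 and BRD4884 were all under the DMSO range and BRD6688 was over it. The log2 difference was -1.75 ± 0.15 in Vorinostat (limma adjusted p = 1.14e-07), -0.95 ± 0.15 in CI-994 (4.72e-05) and 0.54 ± 0.15 in BRD6688 (0.00625), where it was the 1 gene of the set called higher. In BRD4884 it was -0.32 ± 0.15 and not called (limma adjusted p = 0.0821). That result depended on the fit. Mki67 was called there at -0.53 (limma adjusted p = 0.0089) with median-of-ratios scaling. With only BRD4884 and DMSO in the fit it was called at -0.32 (limma adjusted p = 7.94e-05). The BRD6688 call was lost without library A (0.45, limma adjusted p = 0.0724). Ccnb2, cyclin B2, was at the edge of the test in BRD4884 and BRD6688: those calls (limma adjusted p = 0.0471 and 0.0469) were lost when any 1 of the 3 DMSO libraries was left out.

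Wee1 was at 53.7, 53.7 and 57.2 junction CPM in DMSO, 9.09 and 9.99 in Vorinostat, 6.67 and 9.66 in CI-994, 28.5 and 26.2 in BRD4884, and 30.9 and 35.4 in BRD6688. It was lower in every inhibitor library, with log2 differences of -2.52, -2.77 and -0.73, each ± 0.14, in Vorinostat, CI-994 and BRD6688 (limma adjusted p = 1.68e-09, 7.28e-10 and 0.00053), and with 0.499 of the DMSO level in BRD4884 (3.68e-05), the fifth strongest fall there. Pkmyt1, the second kinase of this kind, was at 13.2, 11 and 8.34 in DMSO and at 3.56 and 5.05 in Vorinostat (-1.32 ± 0.24, 0.000183). In BRD4884 and BRD6688 it overlapped DMSO.

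The differences of the Cdk inhibitors were smaller than the median of the set in Vorinostat and CI-994. Cdkn1b (p27) was at 82.9, 77.6 and 75.2 junction CPM in DMSO, 64.8 and 60 in Vorinostat, 42.5 and 39.6 in CI-994, 73.7 and 75.4 in BRD4884, and 67.4 and 57.6 in BRD6688. It was lower in CI-994 (-0.94 ± 0.09, limma adjusted p = 3.39e-07), Vorinostat (-0.33 ± 0.09, 0.00373) and BRD6688 (-0.33 ± 0.09, 0.00473; lost without BRD6688 B, 0.0936), and overlapped DMSO in BRD4884. Cdkn2c (p18) had between 1.44 and 4.49 junction CPM in all of these libraries and was called in none. In CI-994 (-0.70 ± 0.36, limma adjusted p = 0.0894) it was called lower with reads of exon events (-1.10, adjusted p = 0.00408), with only CI-994 and DMSO in the fit (-0.70, 0.0335) and without CI-994 A (-1.10, 0.0381).

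A further 67 genes of the same pathway, 31 of G1/S and replication, 30 of G2/M and 6 brakes on the cycle, were examined beside the 42, and limma tested 63 of them. In Vorinostat 58 were lower and 3 higher, in CI-994 58 and 3, in BRD4884 54 and 5, and in BRD6688 38 and 5. Over all genes tested, in the same order, 34.3, 35.2, 19.3 and 24.3% were lower and 42.3, 42.2, 42 and 41.2% higher. The lower genes with the largest differences in Vorinostat were the mitotic transcription factor Foxm1 (-3.51 ± 0.15), Birc5, or survivin (-3.15 ± 0.11), and Mybl2 (-3.08 ± 0.09). In CI-994, Mybl2 (-3.03 ± 0.09) and the flap endonuclease Fen1 (-2.93 ± 0.23) were among them.

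Of the 6 brakes 4 were tested. Higher were 3 in Vorinostat, CI-994 and BRD6688 and 4 in BRD4884, and none was lower, where 41.2 to 42.3% of all genes were higher. Cdkn2d (p19), which had no intron in the splicing table and was not tested, was lower in CI-994, at 6.11 RPKM against 16.8 in DMSO (-1.39 on the log2 scale), and between 13.6 and 17.2 in the other three. Cdkn1a (p21) was between 11.6 and 12.7 junction CPM in DMSO, and between 66.1 and 98.7 in Vorinostat, 65.2 and 76.5 in CI-994, 50.8 and 55.8 in BRD4884, and 34.6 and 37.6 in BRD6688. The log2 differences of Cdkn1a were 2.71, 2.52, 2.11 and 1.55. Rb1, the retinoblastoma gene, was between 24 and 28.6 in DMSO and at 65 or more in every inhibitor library, with differences of 2.17, 1.67, 1.31 and 1.52.

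BRD4884 and BRD6688 are both derivatives of CI-994 and were given at the same dose for the same time, so they were compared directly in the same limma fit. In BRD4884, 12 of 38 genes were lower than in BRD6688 and 1 was higher, where 10.5% of all genes were lower and 18.6% higher. The median log2 difference was -0.16 (all genes 0.10), and no gene of the set was called beyond 2-fold (0.0813% of all genes lower and 3.34% higher). Of the genes called lower, Mki67 differed most (-0.85, 95% interval -1.21 to -0.50, limma adjusted p = 0.0061), followed by Cdc6 (-0.55, -0.82 to -0.29, 0.00826), Ccna2 (-0.52, -0.72 to -0.33, 0.00509), Cdc25a (-0.41, -0.68 to -0.15, 0.0253) and Mcm6 (-0.41, -0.57 to -0.25, 0.00558). The others lower in BRD4884 were Top2a, Mcm5, E2f1, Rrm1, Mcm4, Bub1b and Cdc25b. Cdk1 was higher (0.51, 0.16 to 0.85, 0.0313). Ccnd2 (1.56, -0.63 to 3.75, limma adjusted p = 0.256) and Pkmyt1 (-0.56, -1.13 to 0.00, 0.116) had wide intervals and were not called.

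Ccne2 did not pass the test between the pair, and its interval was narrow (0.01, -0.21 to 0.23). The same held for Ccnb2 (-0.00, -0.23 to 0.23) and Rrm2 (-0.06, -0.30 to 0.17). With 2 libraries each, the calls depended on single libraries: 1 gene, Ccna2, was called without BRD4884 A, 6 without BRD4884 B, 3 without BRD6688 A and 6 without BRD6688 B. The Cdk1 call was lost when any 1 of the 4 was left out.

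The G2/M genes were then set against the G1/S and replication genes in each compound, as the difference between the median log2 RPKM ratios of the 2 groups. G2/M genes had the lower median in 10 of 27 compounds. In 18 compounds the difference was under 0.1 in size. The difference was -0.28 in Vorinostat (from medians of -2.53 for G1/S and -2.81 for G2/M) and -0.19 in CI-994 (from -2.47 and -2.66). It was between -0.36 and -0.16 in Vorinostat over 7 ways of computing it. In CI-994 it ran from -0.35 to -0.07, being -0.08 for means over the genes and -0.07 on junction reads, where GNF-5837 was at -0.12 and SEW06315 at -0.10. Positive differences were found in BRD4884 (0.32, from -1.15 and -0.83), BRD6688 (0.26, from -0.80 and -0.54), 5-azacytidine (0.25, from -0.17 and 0.07) and OICR.24K.Dissimilar_18_P14 (0.19, from -0.26 and -0.07). With means in place of medians, BRD4884 was at 0.20 and BRD6688 at 0.13, and with the D cyclin group added to the G1/S genes they were at 0.17 and 0.14. In the further pathway genes, the RPKM medians for G1/S and G2/M were -2.18 and -2.44 in Vorinostat, -2.31 and -2.33 in CI-994, -0.91 and -0.77 in BRD4884, and -0.61 and -0.45 in BRD6688. In 17 compounds the sign was the same in all 7 ways. GNF-5837, in which many of these genes were lower, had nearly equal medians (-1.12 and -1.13), and the sign changed with the method.

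By library, on junction reads, G2/M minus G1/S was between -0.02 and 0.01 in the 3 DMSO libraries. It was -0.18 and -0.10 in Vorinostat, -0.02 and -0.12 in CI-994, 0.28 and 0.34 in BRD4884, and 0.23 and 0.28 in BRD6688. Both libraries of BRD4884 and of BRD6688 were above the DMSO range, and CI-994 A was at its edge. Among compounds with 1 library, OICR.24K.Dissimilar_18_P14 was at 0.23, and 5-azacytidine and BTBS00065 were both at 0.21.

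**Figure D3:**
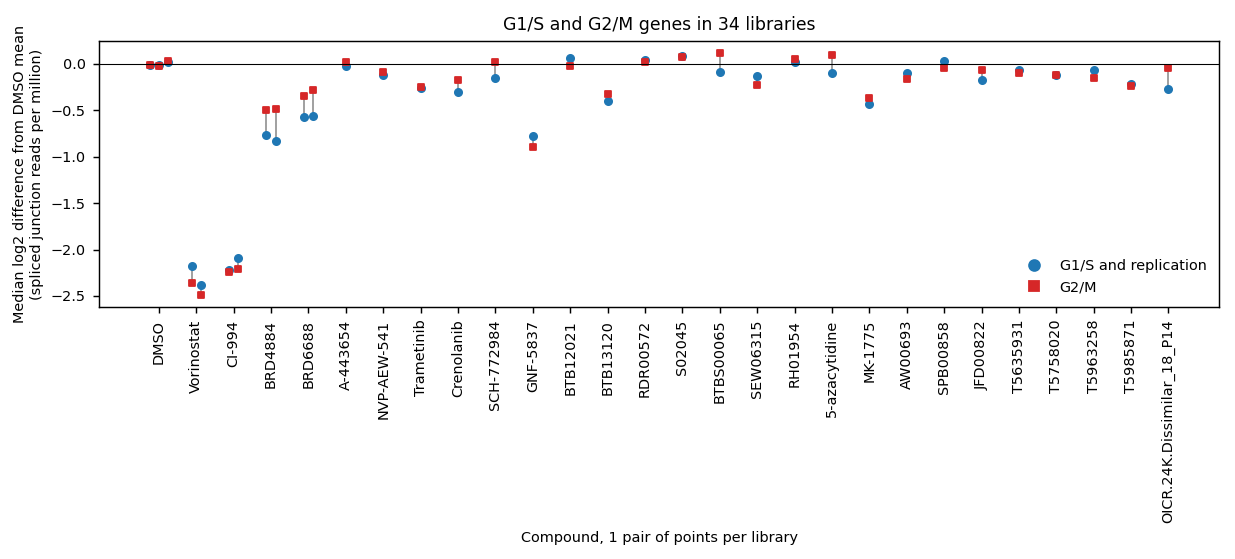
Median log2 difference from the DMSO mean in junction CPM for G1/S and replication genes (blue circles) and G2/M genes (red squares), 1 pair of points for each of 34 libraries. The pairs of BRD4884 and BRD6688 have the red square above the blue circle by 0.23 to 0.34, and those of Vorinostat and CI-994 have it below by 0.02 to 0.18.

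The 23 compounds with 1 library have no replicate, and their values below are a description. GNF-5837, a TRK inhibitor, had 19 of 39 genes lower beyond 2-fold in RPKM, where 5.7% of all genes were. The count depended on the scale, and on junction reads it was 6 of 37 (Ccnd1, Cdc6, Mcm3, Rrm2, Cdk1 and Aurkb), against 3.72% of all genes. The 19 were 10 G1/S and replication genes, 8 G2/M genes and Ccnd1. Ccnd1 went from 93.5 to 21 RPKM (-2.13 on the log2 scale), with 54.5 junction CPM against 178 to 204 in DMSO. Cdc6 went from 23.2 to 7.36 RPKM (-1.59), Cdk1 from 667 to 230 (-1.54), Ccnb1 from 340 to 117 (-1.53) and Rrm2 from 96 to 33.9 (-1.49). On junction reads the differences were smaller, at -1.84 for Ccnd1, -1.34 for Cdc6, -1.30 for Cdk1 and -1.16 for Rrm2. Of the other 66 pathway genes over 5 RPKM, 39 were lower beyond 2-fold, led by Orc1, a subunit of the origin recognition complex (13.4 to 3.47 RPKM), and Exo1, a repair exonuclease (50.6 to 15.5). Cdkn1a stood at 9.59 RPKM against 11.6 in DMSO.

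Ccnd1 was the 1 gene of the set beyond 2-fold in Trametinib, the MEK inhibitor, and in Crenolanib, where 1.86% and 2.46% of all genes were lower by that much. It was at 40.5 RPKM in Trametinib (-1.20) and 38.4 in Crenolanib (-1.28), with 97.8 and 100 junction CPM, where the log2 differences of Ccnd1 were -0.99 and -0.95. In SCH-772984, the Erk inhibitor, it was at 63.4 RPKM (-0.56) and 139 junction CPM. The libraries of these 3 compounds and of GNF-5837 were all under the DMSO range of 178 to 204. Ccnd1 was also under that range in NVP-AEW-541 (171), in T5758020 (165) and in every HDAC inhibitor library. In A-443654 it was at 234.

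MK-1775, the inhibitor of Wee1, had 8 genes lower beyond 2-fold, where 2.69% of all genes were. Cdk1, whose product Wee1 phosphorylates, went from 667 to 248 RPKM (-1.42), with 239 junction CPM against 470 to 527 in DMSO. Rrm2 went from 96 to 36.2 RPKM (-1.39), Top2a, the topoisomerase that untangles chromosomes, from 258 to 102 (-1.33), the phosphatase gene Cdc25b from 44.1 to 18 (-1.27) and Ccne1 from 33.9 to 13.8 (-1.26). The median ratio of all genes in this compound was -0.30. Centred on it, Cdk1, Rrm2 and Top2a stayed beyond 2-fold, at -1.12, -1.09 and -1.03, and the same 3 of 37 genes were beyond 2-fold lower on junction reads, where 0.477% of all genes were. Not all genes were lower. On junction reads, the median log2 difference was -0.43 for G1/S and replication genes and -0.37 for G2/M genes. Some G2/M genes (Cdc20, Cdc25c, Plk1, Aurka, Bub1b and Mki67) were above the DMSO range. The DMSO libraries lay close together, and the share of all genes outside their range is not given. A split between the 2 groups was not tested. Cdc20 was at 155 junction CPM against 101 to 112 in DMSO, and Aurka at 307 against 254 to 264. Among the other pathway genes, Cdkn1a went from 11.6 to 25.2 RPKM and the thymidine kinase gene Tk1 from 69.4 to 26.9.

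Of the screening molecules of unknown target, BTB13120 and AW00693 had 1 gene each beyond 2-fold and T5985871 had 5 (2 higher and 3 lower), shares of the 39 genes that were close to or below those of all genes. In BTB13120, Cdk1 went from 667 to 268 RPKM (-1.31), with 212 junction CPM, while 3.36% of all genes were lower beyond 2-fold. Mki67 was instead at 361 junction CPM there and at 348 in BTBS00065, both over the DMSO range of 194 to 202 (log2 RPKM ratio 0.78 and 0.57). Aurka, the spindle pole kinase, went from 116 to 236 RPKM in AW00693 (1.03) and to 268 in T5985871 (1.21), where 2.53% and 6.05% of all genes were higher beyond 2-fold. Its junction CPM was 529 and 634 in these compounds and 444 in T5635931, against 254 to 264 in DMSO.

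T5985871 also had Mcm7 higher, at 384 RPKM against 165 (1.21), and 345 junction CPM against 160 to 169. Mcm3 to Mcm6 were not beyond 2-fold. Cdc25b (44.1 to 18.2 RPKM), the spindle checkpoint gene Mad2l1 (154 to 68) and E2f2 (12.8 to 5.63) were lower, where 8.41% of all genes were. Outside the set, Cdt1, the licensing factor that works with Cdc6, stood at 309 RPKM against 76.5 in DMSO (2.01), the largest ratio of the 66 other pathway genes in this compound. The Cdk inhibitor Cdkn2d was at 43.8 against 16.8, and Foxm1 at 25.8 against 62.8.

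**Figure D4:**
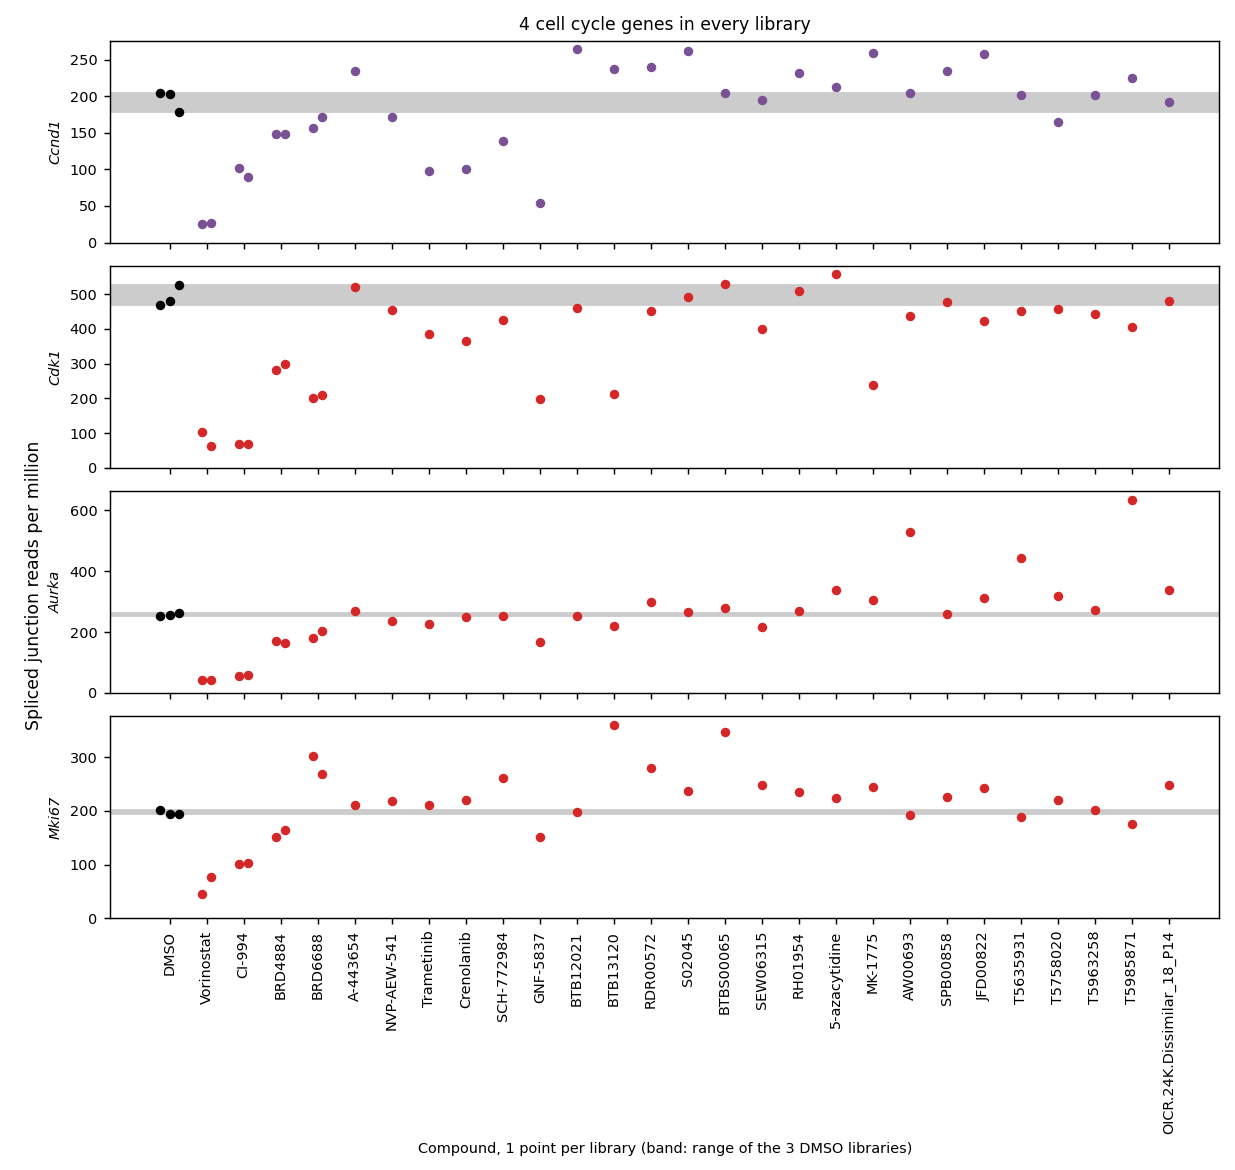
Junction CPM of Ccnd1, Cdk1, Aurka and Mki67 in all 34 libraries (1 point each, linear axes from 0), with the range of the 3 DMSO libraries as a grey band. Ccnd1 is lowest in Vorinostat, GNF-5837, CI-994, Trametinib and Crenolanib. Cdk1 is lowest in Vorinostat and CI-994, followed by GNF-5837 (199), BRD6688 (200 and 210), BTB13120 (212) and MK-1775 (239). Aurka is high in AW00693 (529) and T5985871 (634), and Mki67 in BTB13120 (361) and BTBS00065 (348).

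Splicing gave a second readout of the same genes. An event counted as different where the mean percent spliced in (PSI) was at least 10 from the DMSO mean and every library of the compound lay outside the DMSO range. With 3 libraries against 2 no permutation test can go below p = 0.1, and none was made. In Vorinostat 5 of 775 events in these genes passed, in CI-994 5 of 803, in BRD4884 3 of 855 and in BRD6688 1 of 836. Over all genes, 0.937%, 1.04%, 0.644% and 0.739% of events passed. Of these 14 events, 4 were the same exon of Cdk4. Splice sites that compete with each other count as separate events, here and over all genes. Both competing sites passed for Pkmyt1 in Vorinostat (differences of 58.2 and -58.1) and CI-994 (11.6 and -12.0), and for Ccnd1 in CI-994 (10.4 and -10.4). The events are therefore not all distinct changes.

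This Cdk4 exon (mm9, chr10:126501276-126501509) is 234 bases long. By its length and that of its neighbouring introns it is exon 2 of 8 of the protein-coding transcript Cdk4-201, and 218 of its bases are coding. Its inclusion was 76.7, 77.8 and 74.1% in DMSO A, B and C. It was 89.6 and 90.6% in Vorinostat, 89.8 and 89.4% in CI-994, 91.1 and 88.4% in BRD4884, and 90.4 and 87.4% in BRD6688, from between 2357 and 6240 reads per library. All 8 inhibitor libraries were above DMSO, by 12.7 to 13.9 on average. A-443654 was as high, at 91.5%, and NVP-AEW-541 was at 83.3%. Low inclusion occurred in RDR00572 (51.6%), BTB12021 (53.1%), MK-1775 (54.9%), S02045 (55.8%), T5985871 (60.4%), JFD00822 (61.8%) and RH01954 (63.7%).

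**Figure D5:**
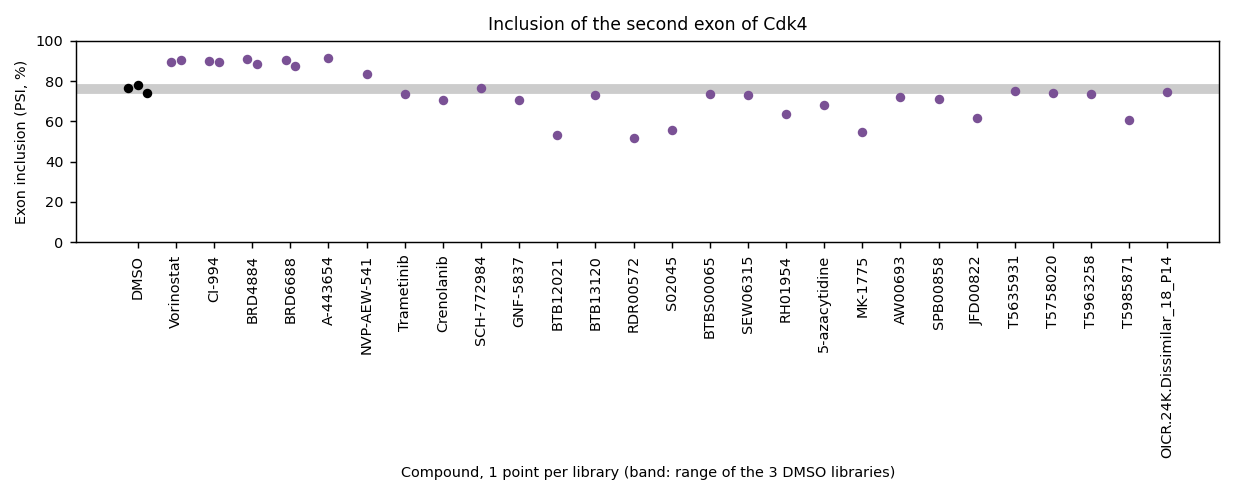
Inclusion (PSI, percent) of exon 2 of Cdk4 in each of 34 libraries, with the range of the 3 DMSO libraries (74.1 to 77.8%) as a grey band. The 8 HDAC inhibitor libraries and A-443654 lie between 87.4 and 91.5%, and 4 compounds lie below 60%, the lowest being RDR00572 at 51.6%.

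The other events concerned Pkmyt1, Cdc25b, Cdc25c and Ccnd1. An alternative 5' splice site of Pkmyt1 (mm9, position 23864065 of chromosome 17) was used in 70.4 and 51.3% of transcripts in Vorinostat and 10.6 and 17.9% in CI-994, against 0.59 to 3.94% in DMSO, with as few as 69 reads in a library. An exon of Cdc25b of 123 bases (mm9, chr2:131017549-131017671, exon 7 of 16 of Cdc25b-201, all coding) was included at 19.5 to 21.6% in DMSO, 46.3 and 34% in Vorinostat, and 33.7 and 37.3% in BRD4884. An exon of Cdc25c of 102 bases was at 94.6 to 98.2% in DMSO and at 72.5 and 79.2% in Vorinostat. An alternative 3' splice site of Ccnd1 (mm9, position 152118742 of chromosome 7) was used in 17 and 19.4% of transcripts in CI-994, against 6.82 to 9.51% in DMSO.

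RefSeq promoter sequences (GRCm38.p6), the 250 bases before each annotated start, were available for 32 of the 42 genes, not for Ccnd1, Ccnd2, Ccne2, Mcm4, Ccna2, Cdc25c, Aurkb, Wee1, Pkmyt1 and Cdkn1c. They were searched on both strands for elements known from cell cycle promoters: the CHR (TTTGAA or TTCGAA), the CCAAT box (CCAAT) and the E2F site (TTTCCCGC, TTTGGCGC, TTTCGCGC or TTTGCCGC). The CHR was present in 6 of 12 G2/M promoters (50%), 3 of 17 G1/S promoters (17.6%) and 17.1% of all promoters. Among the further pathway genes the share was 22.2% for G2/M (6 of 27 promoters) and 17.9% for G1/S (5 of 28). The E2F letters were present in 1 of 12 G2/M promoters (8.33%), 6 of 17 G1/S promoters (35.3%) and 1.86% of all, and in the further genes in 0 of 27 and 6 of 28 (21.4%). CCAAT was common to both groups (91.7 and 76.5%, against 33.8% of all, and 70.4 and 50% in the further G2/M and G1/S genes). Such matches are letters in a window, not shown binding, and no test was made.

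A pair of promoters from each group is printed here, 5' to 3' on the gene's strand and ending at the base before the start. They were chosen among genes named above that hold a searched element, so the presence of matches in them is not a result. Capitals mark matches to any of the 3 elements. Cdc6 (chr11:98907901-98908150, plus strand) and Mcm6 (chr1:128359706-128359955, minus strand) are G1/S genes, and Cdk1 (chr10:69352913-69353162, minus strand) and Cdc20 (chr4:118437344-118437593, minus strand) are G2/M genes.
Cdc6: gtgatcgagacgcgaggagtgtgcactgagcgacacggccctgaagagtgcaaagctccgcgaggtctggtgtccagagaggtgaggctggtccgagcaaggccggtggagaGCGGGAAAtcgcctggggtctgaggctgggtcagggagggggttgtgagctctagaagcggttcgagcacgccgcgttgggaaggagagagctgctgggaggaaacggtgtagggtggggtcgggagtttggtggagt
Mcm6: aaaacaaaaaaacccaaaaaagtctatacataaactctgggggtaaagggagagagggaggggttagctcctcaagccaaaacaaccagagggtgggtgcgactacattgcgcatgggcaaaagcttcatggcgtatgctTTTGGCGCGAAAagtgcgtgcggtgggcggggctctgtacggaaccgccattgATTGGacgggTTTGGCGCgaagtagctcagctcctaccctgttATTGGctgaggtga
Cdk1: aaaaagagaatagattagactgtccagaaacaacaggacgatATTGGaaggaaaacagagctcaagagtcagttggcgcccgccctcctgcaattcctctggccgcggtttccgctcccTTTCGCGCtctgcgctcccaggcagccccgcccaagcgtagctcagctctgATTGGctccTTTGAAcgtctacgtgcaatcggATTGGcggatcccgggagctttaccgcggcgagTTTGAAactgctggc
Cdc20: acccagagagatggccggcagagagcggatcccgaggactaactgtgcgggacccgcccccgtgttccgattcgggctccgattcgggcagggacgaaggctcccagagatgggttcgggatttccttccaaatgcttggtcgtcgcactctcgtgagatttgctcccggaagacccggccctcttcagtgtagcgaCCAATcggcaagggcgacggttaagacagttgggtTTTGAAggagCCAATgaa
The Cdc6 window holds 1 E2F match and no CHR, and that of Mcm6 holds 3 E2F and 2 CCAAT matches. The Cdk1 window holds 2 CHR, 3 CCAAT and 1 E2F match, and that of Cdc20 holds 1 CHR and 2 CCAAT matches. Their nearest CHR lies 9 bases before the start in Cdk1 and 12 in Cdc20. In Vorinostat, the junction reads of the 4 genes differed from DMSO by -2.85 (Cdc6), -1.96 (Mcm6), -2.61 (Cdk1) and -3.76 (Cdc20) on the log2 scale.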

How the data were processed

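PolyA RNA was sequenced from 34 libraries of N2A cells. The authors deposited a gene table with 1 RPKM value per condition, replicates merged. Per the labels, Salmon (0.10.2) and edgeR were among the authors' tools; the Salmon version in the study's methods differs. Columns with the authors' own fold changes, p-values and FDR, and a second splicing table of pooled estimates, were not used. A vast-tools table deposited by the authors gives PSI in percent and, in its quality fields, the read counts per library (mm9). All its value columns matched a sample.

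The counts of reads supporting the spliced form were summed over the introns of each gene. They are not full gene counts: they depend on the introns listed and miss genes without any. These sums were divided by the library total and tested, as log2 after adding 1 read, by limma 3.58.1 (R 4.3.3; moderated with trend, two-sided) on 11073 genes with a mean of at least 20 reads, in 11 libraries (DMSO and 4 HDAC inhibitors, 6 residual degrees of freedom). Benjamini-Hochberg adjusted p below 0.05 was called. A count model was not used because these reads are derived sums that can count a read at more than 1 intron. RPKM ratios used 0.5 added, 5 RPKM and 2-fold. PSI used a difference of 10. Other steps used Python 3.11.15, pandas 2.3.3 and numpy 2.4.6. The scripts were tested on simulated data.

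Genes given in full were the members called with the largest log2 difference in each HDAC inhibitor (up to 5 lower and 5 higher), and in the other compounds up to 5 members beyond 2-fold; other members described were chosen after their values were seen. The members and lists were chosen with earlier results of these data known. Exons were matched to GENCODE vM21 transcripts by length, and promoters to RefSeq (GRCm38.p6) by symbol. Some listed genes are not reported by name here.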

Additional observations from a re-analysis of the deposited data

How the results depend on the processing

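The numbers of genes called were recomputed with other scaling, filters, added reads, exon reads, fewer groups and single libraries left out. Against DMSO, all counts stayed within 1.5 times of those reported (36 for Vorinostat, 37 for CI-994, 28 for BRD4884 and 27 for BRD6688). Between BRD4884 and BRD6688 the 13 calls dropped to between 1 and 6 when 1 library was left out. Requiring 15 PSI left 4 of the 14 splicing events. Replicate letters are shared between groups, but differences between A and B libraries correlated by -0.13 to 0.03 between groups over 11073 genes, so the letters were not taken to pair the samples; with the letter as a replicate block the counts were 36, 37, 27, 24 and 11 for the 5 comparisons in the same order. The number of compounds with G2/M below G1/S genes and the number of values beyond 2-fold stayed within 1.5 times in all alternatives. Depth limits Ccnd2, Cdk6 and Cdkn1c, and the 23 compounds with 1 library have no replicate error.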
